A study of Arabidopsis thaliana with 21 samples.

Results

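The small RNAs of the Arabidopsis thaliana cross labelled dxo1-2dcl4-2 were set against those of wild-type Col-0, 3 libraries a side at 10 days of age. The 21-nt, 22-nt and 24-nt RNAs each had a deposited table of their own, with 32420 loci. A locus was kept where its mean over these 6 libraries was at least 5 normalized reads, that is, reads divided by the library's size factor in its own table. That left 1823 loci in the 21-nt class, 2560 in the 22-nt class and 3731 in the 24-nt class. The means just inside and just outside this limit were 5.0001 and 4.9996 (21-nt), 5.0006 and 4.9998 (22-nt), and 5.0026 and 4.9972 (24-nt).

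The double mutant carries the alleles dxo1-2 and dcl4-2. The single mutants dcl4-2 and dxo1-2 were sequenced with it, also with 3 libraries each, and are given beside it. Each gene is represented by a single allele. Every sample is labelled rosette leaves, whereas the extraction protocol for small RNA speaks of seedlings. The labels do not say whether replicates were separate cultures, and the p-values below reflect differences among these libraries only, which may be technical. Per the series title, AtDXO1 removes NAD caps from RNA and is an exonuclease.

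In plants, Dicer-like enzymes cut double-stranded RNA into small RNAs of set lengths. DCL1 makes most microRNAs, DCL4 makes the 21-nt trans-acting and other secondary small interfering RNAs (siRNAs), DCL2 makes 22-nt siRNAs, and DCL3 makes the 24-nt siRNAs of RNA-directed DNA methylation. In Arabidopsis plants that lack DCL4 together with cytoplasmic RNA decay enzymes, 22-nt siRNAs from NIA1, NIA2 and other protein-coding genes have been described as DCL2 products.

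Recovered whole reads summed over the 3 classes to 728418 to 1403794 per dxo1-2dcl4-2 library, 195104 to 303428 in dcl4-2, 288852 to 893943 in dxo1-2 and 173804 to 482309 in Col-0. Col-0 replicate 1 stood apart from the other Col-0 libraries in its size classes (below), so results that rest on it are given without it as well. DCL4 (AT5G20320) had 0 reads in all dxo1-2dcl4-2 libraries and classes, against 3 reads at 22-nt and 15 at 24-nt over the Col-0 libraries, and DXO1 (AT4G17620) had 11 reads at 22-nt against 8 in Col-0. Neither locus reached the mean of 5, and small RNA reads at a locus do not check its genotype.

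The 22-nt class was the largest of the 3 in the double mutant, whereas in Col-0 the 21-nt class was the largest in each library. It made up 56.7, 57.4 and 57.6% of the recovered reads in the dxo1-2dcl4-2 libraries, against 24.3, 21.9 and 22.1% in the Col-0 libraries. The means were 57.2 ± 0.491% in dxo1-2dcl4-2, 30.8 ± 1.32% in dcl4-2, 22.1 ± 0.676% in dxo1-2 and 22.8 ± 1.32% in Col-0 (SD, n = 3 each). The 21-nt class held 25.03, 27.7 and 27.8% in dxo1-2dcl4-2, against 54.4, 41.8 and 41.1% in Col-0. For 24-nt RNAs the shares were 18.3, 14.9 and 14.6% in dxo1-2dcl4-2, against 21.3, 36.3 and 36.8% in Col-0. None of the 3 classes overlapped between the groups. The exact two-sided permutation test gave p = 0.1 for each class, the smallest value that 3 libraries against 3 allow. Col-0 replicate 1 had the highest 21-nt and the lowest 24-nt share of its group, and leaving out any of the 6 libraries gave differences (dxo1-2dcl4-2 minus Col-0) of 34.03 to 35.22 percentage points for 22-nt, -21.24 to -14.57 for 21-nt and -20.64 to -12.88 for 24-nt.

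**Figure D1:**
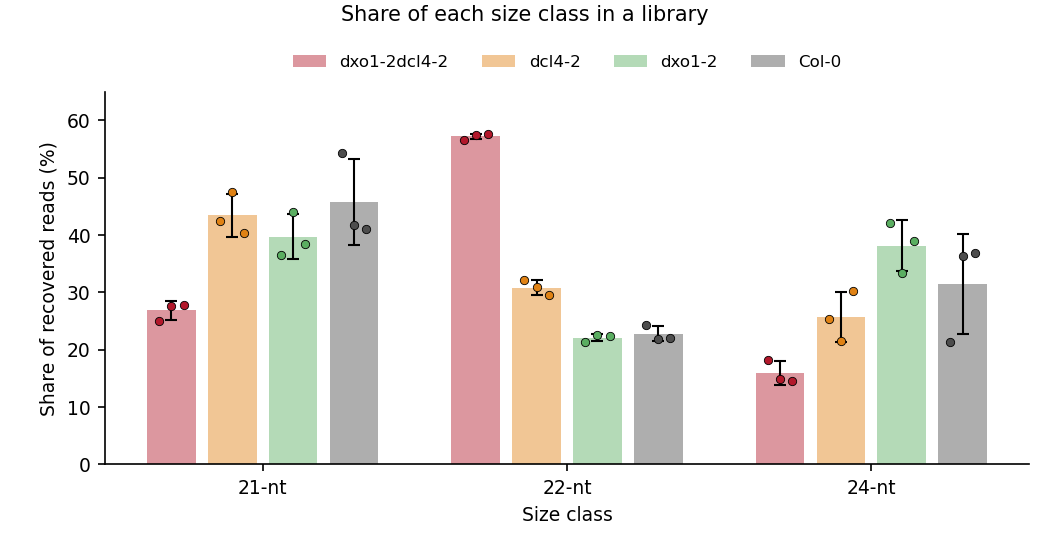
Share of each library's recovered reads, in percent of the 3 classes summed, for 21-nt, 22-nt and 24-nt RNAs in the 4 groups; points are libraries, bars are means and error bars are SD (n = 3). At 22-nt the dxo1-2dcl4-2 libraries lie at 56.7 to 57.6%, above every other library.

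Reads from protein-coding genes filled this class. Nuclear protein-coding loci gave 91.9 ± 0.0589% of the 22-nt reads in dxo1-2dcl4-2, against 36.3 ± 0.895% in Col-0 (SD, n = 3 each). The 2 nitrate reductase genes NIA1 and NIA2 alone gave 48.0 ± 0.0978% of the 22-nt reads in dxo1-2dcl4-2, 0.395% in dcl4-2, 0.254% in dxo1-2 and 0.0700% in Col-0. Their share of 21-nt reads was 30.7% in dxo1-2dcl4-2 against 0.0378% in Col-0, and of 24-nt reads 27.6% against 0.0254%. MicroRNA loci took 20.3 ± 1.53% of the 21-nt reads in dxo1-2dcl4-2, against 55.4 ± 1.65% in Col-0. Their normalized 21-nt reads summed to 53524 ± 7228 in dxo1-2dcl4-2, 75795 in dcl4-2, 60614 in dxo1-2 and 75791 ± 6427 in Col-0. Because a share falls when another rises, the loci below are described on the deposited normalized reads, which are scaled on loci with reads in every library.

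Loci were called in both directions in each size class. By limma on log2(normalized reads + 0.5), with a Benjamini-Hochberg adjusted p under 0.05 over all loci of a class, 265 of 2560 loci were higher (10.4%) and 164 lower (6.41%) at 22-nt in dxo1-2dcl4-2 than in Col-0. At 21-nt, 187 of 1823 loci were higher (10.3%) and 138 lower (7.57%). At 24-nt, 202 of 3731 were higher (5.41%) and 336 lower (9.01%). The median log2 difference over all loci tested was 0.10 at 22-nt, 0.28 at 21-nt and -0.15 at 24-nt. Among these called loci, groups did not overlap at 256 of the higher and 161 of the lower 22-nt loci, 183 and 134 at 21-nt, and 199 and 318 at 24-nt. A call favours such separation, and the share over all loci tested was not counted, so these counts are a description. The limit of 5 let in loci that pass through the high group only: 51 of the 265 higher 22-nt loci had a Col-0 mean of at least 5, and 100 had no read in any Col-0 library. Of the 164 lower 22-nt loci, 86 had a dxo1-2dcl4-2 mean of at least 5. At 21-nt, 42 of the 187 higher and 80 of the 138 lower loci had such a mean in the other group, and at 24-nt 89 of 202 and 182 of 336. Among called loci at that level in both groups, more were therefore lower than higher in each class.

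These counts depend on the scaling, and at 21-nt and 24-nt also on the tool and on the libraries fitted. At 24-nt edgeR gave 87 higher and 420 lower, and limma on the 6 libraries only gave 100 and 106. Leaving out any 1 Col-0 library gave 120 to 140 higher and 172 to 182 lower 24-nt loci by limma. By edgeR 123 loci were higher and 141 lower at 21-nt, and by limma without dxo1-2dcl4-2 replicate 2 the counts were 182 and 187. Higher loci were 61.8% of those called at 22-nt, 57.5% at 21-nt and 37.5% at 24-nt. With libraries centred on the median of the tested loci they were 46.7, 37.9 and 32.4% in the same order. When values were scaled to all recovered reads of a library, which hold the gain itself, they were 27.3, 20.8 and 4.85%, and the median over all loci moved to -0.98, -1.13 and -1.66 (log2).

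For the single mutants the same fit gave 89 higher (3.48%) and 16 lower (0.625%) 22-nt loci in dcl4-2 against Col-0, and 17 higher and 17 lower (0.664% each) in dxo1-2 against Col-0. Set against the single mutants themselves, dxo1-2dcl4-2 had 318 higher (12.4%) and 187 lower (7.3%) 22-nt loci than dcl4-2, and 190 higher (7.42%) and 73 lower (2.85%) than dxo1-2. Also at 24-nt, 23 loci were higher (0.616%) and 9 lower (0.241%) in dcl4-2 than in Col-0, and 2 higher (0.0536%) and 4 lower (0.107%) in dxo1-2. At 21-nt, dxo1-2dcl4-2 had 233 higher (12.8%) and 125 lower (6.86%) loci than dcl4-2, and 127 higher (6.97%) and 115 lower (6.31%) than dxo1-2, while dcl4-2 had 42 higher (2.3%) and 33 lower (1.81%) and dxo1-2 had 33 higher (1.81%) and 15 lower (0.823%) than Col-0. At 24-nt the double mutant had 173 higher (4.64%) and 211 lower (5.66%) loci than dcl4-2, and 114 higher (3.06%) and 121 lower (3.24%) than dxo1-2. These comparisons share libraries, and each is given by its own counts. All rest on loci kept by their mean in dxo1-2dcl4-2 and Col-0, so a locus high in a single mutant only was not tested. The filter thus favoured calls in the double mutant, and these counts do not measure how many loci each single mutant changed.

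**Figure D2:**
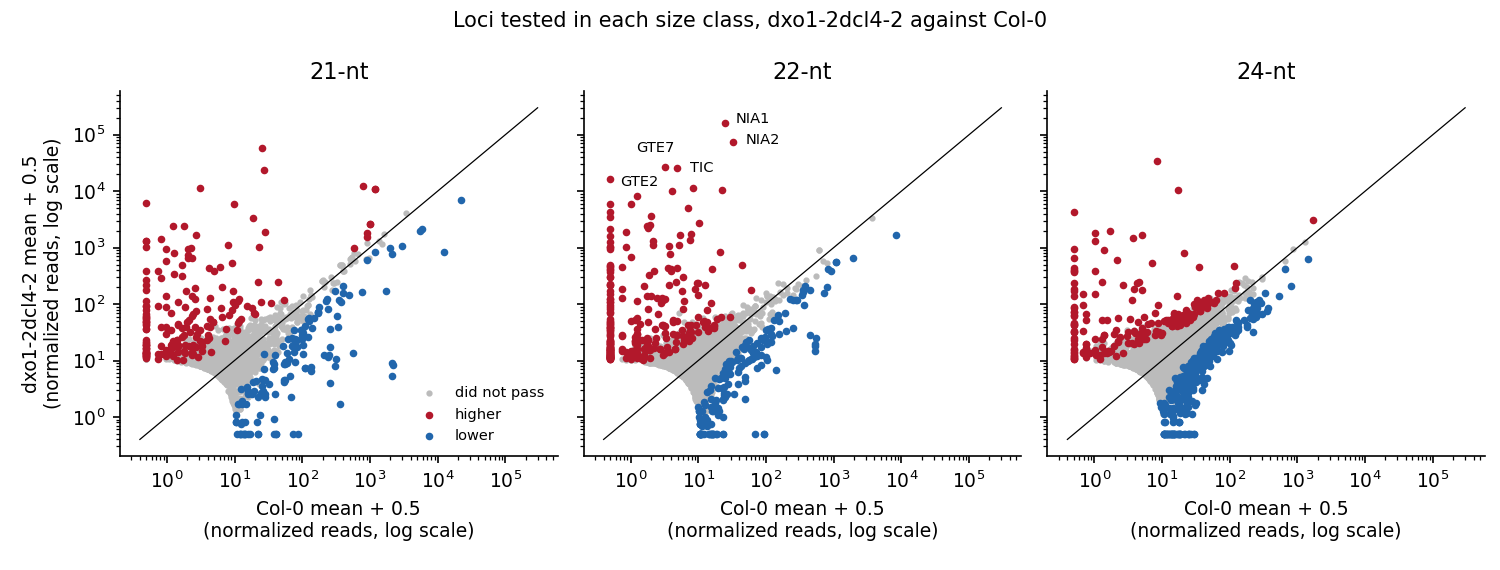
Mean normalized reads + 0.5 in dxo1-2dcl4-2 (vertical log axis) against the same in Col-0 (horizontal log axis) for the loci tested in each size class; red points are higher and blue points lower with an adjusted p under 0.05 (limma), and the line marks equal values. At 22-nt NIA1, NIA2, GTE7, TIC and GTE2 stand at 16103 to 158063 normalized reads in dxo1-2dcl4-2 and at 32.4 or less in Col-0.

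The 2 nitrate reductases, which convert nitrate to nitrite in nitrogen assimilation, led the 22-nt class in the double mutant. NIA1 (AT1G77760) had 149629, 167414 and 157147 normalized 22-nt reads in the dxo1-2dcl4-2 libraries, against 21.3, 4.52 and 48.2 in the Col-0 libraries. Its means were 158063 ± 8928 in dxo1-2dcl4-2, 381 ± 94.2 in dcl4-2, 104 ± 29.3 in dxo1-2 and 24.7 ± 22.0 in Col-0 (SD, n = 3 each). The ratio of the dxo1-2dcl4-2 and Col-0 means was 6401 (12230 without Col-0 replicate 3), and the log2 difference was 13.14 ± 0.53 (SE, adjusted p = 2.199e-11, limma). NIA1 was the locus with the most 22-nt reads in every dxo1-2dcl4-2 library, and no library of the other groups exceeded 489 there.

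NIA2 (AT1G37130) had 72270, 74346 and 75690 normalized 22-nt reads in the dxo1-2dcl4-2 libraries, against 42.6, 19.6 and 35.1 in the Col-0 libraries. Its means were 74102 ± 1723 in dxo1-2dcl4-2, 29.2 ± 10.7 in dcl4-2, 64.9 ± 8.34 in dxo1-2 and 32.4 ± 11.7 in Col-0. The ratio was 2284 and the log2 difference 11.21 ± 0.30 (SE, adjusted p = 7.83e-14). NIA1 differed from Col-0 in both single mutants too, with log2 differences of 4.42 in dcl4-2 (adjusted p = 1.521e-05) and 2.55 in dxo1-2 (adjusted p = 0.02063), whereas for NIA2 neither single mutant passed the test (-0.14, adjusted p = 0.9027, and 1.05, adjusted p = 0.124).

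NIR1, the nitrite reductase, averaged 105 ± 17.7 normalized 22-nt reads in dxo1-2dcl4-2 and 14.7 ± 6.91 in Col-0, a ratio of 7.11 (log2 difference 2.89, adjusted p = 0.001588). GLT1, the NADH-dependent glutamate synthase, had 10091, 10614 and 10412 in dxo1-2dcl4-2, against 23.3, 15.1 and 28.5 in Col-0. GLT1 was chosen for description after its values were seen, as were CRF4, CWLP, MYB28, PHB, RBCL and RPL23 below.

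Genes of the SMXL family, which includes SMXL3, SMXL4 and SMXL5 of phloem formation and the karrikin signalling repressor SMAX1, gave 22-nt RNAs that were absent or nearly so in Col-0. SMXL5 (AT5G57130) had 5981, 6023 and 5895 normalized reads in dxo1-2dcl4-2 against 0 in all Col-0 libraries. At a floor of 3 reads over the Col-0 libraries this is at least 5478-fold higher (log2 difference 13.54, adjusted p = 3.537e-11). Its mean was 52.5 in dcl4-2 and 0.650 in dxo1-2.

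SMXL4 (AT4G29920) had 3347, 3278 and 3663 normalized reads in dxo1-2dcl4-2 against 0 in all Col-0 libraries, at least 3149-fold higher. Its dcl4-2 libraries averaged 269 ± 71.0, which was itself above Col-0 (log2 difference 9.04, adjusted p = 3.14e-09), and dxo1-2dcl4-2 was above dcl4-2 (3.71, adjusted p = 8.344e-05). SMXL3 averaged 38.2 in dxo1-2dcl4-2 and 0 in Col-0. SMAX1 averaged 25.2 in dxo1-2dcl4-2 and 0.646 in Col-0, where it had 1 read, a ratio of pooled reads of 65.8 (95% counting interval 11.5 to 2625). Of the 11 loci listed as nitrate reductase and SMXL genes, 7 reached the limit at 22-nt and all 7 rose, with a median log2 difference of 11.21 against 0.10 over all loci tested. At 21-nt 6 of 7 rose and at 24-nt 5 of 5. Over all loci tested 10.4% were higher at 22-nt, 10.3% at 21-nt and 5.41% at 24-nt. SMXL3, SMXL4, SMXL5 and SMAX1 reached the limit at 22-nt through dxo1-2dcl4-2 only, so their direction was favoured by the filter. SMXL3 at 21-nt lost its call by edgeR (adjusted p = 0.318) and DESeq2 (0.195). This list, like the others, was chosen with earlier results of these data known.

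A pair of bromodomain genes of the GTE group, GTE7 and GTE2, and the circadian clock regulator TIC were the next most abundant 22-nt loci in the double mutant. GTE7 (AT5G65630) had 26148, 28854 and 26063 normalized reads in dxo1-2dcl4-2, against 3.88, 0 and 4.38 in Col-0, a ratio of means of 9812. GTE2 (AT5G10550) had 15534, 16801 and 15976 in dxo1-2dcl4-2 against 0 in all Col-0 libraries, at least 14787-fold higher. TIC (AT3G22380) had 23716, 26456 and 27669 in dxo1-2dcl4-2, against 1.94, 11.3 and 0 in Col-0, a ratio of 5877 (26769 without Col-0 replicate 2). No single-mutant library was close to these levels. The highest group mean among them was 13.3 normalized reads, for TIC in dcl4-2. The log2 differences from Col-0 were 13.58 for GTE7 (adjusted p = 3.684e-10), 14.97 for GTE2 (1.741e-09) and 13.38 for TIC (1.535e-09). Of the 12 GTE genes listed, only GTE7 and GTE2 reached the limit at 22-nt.

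**Figure D3:**
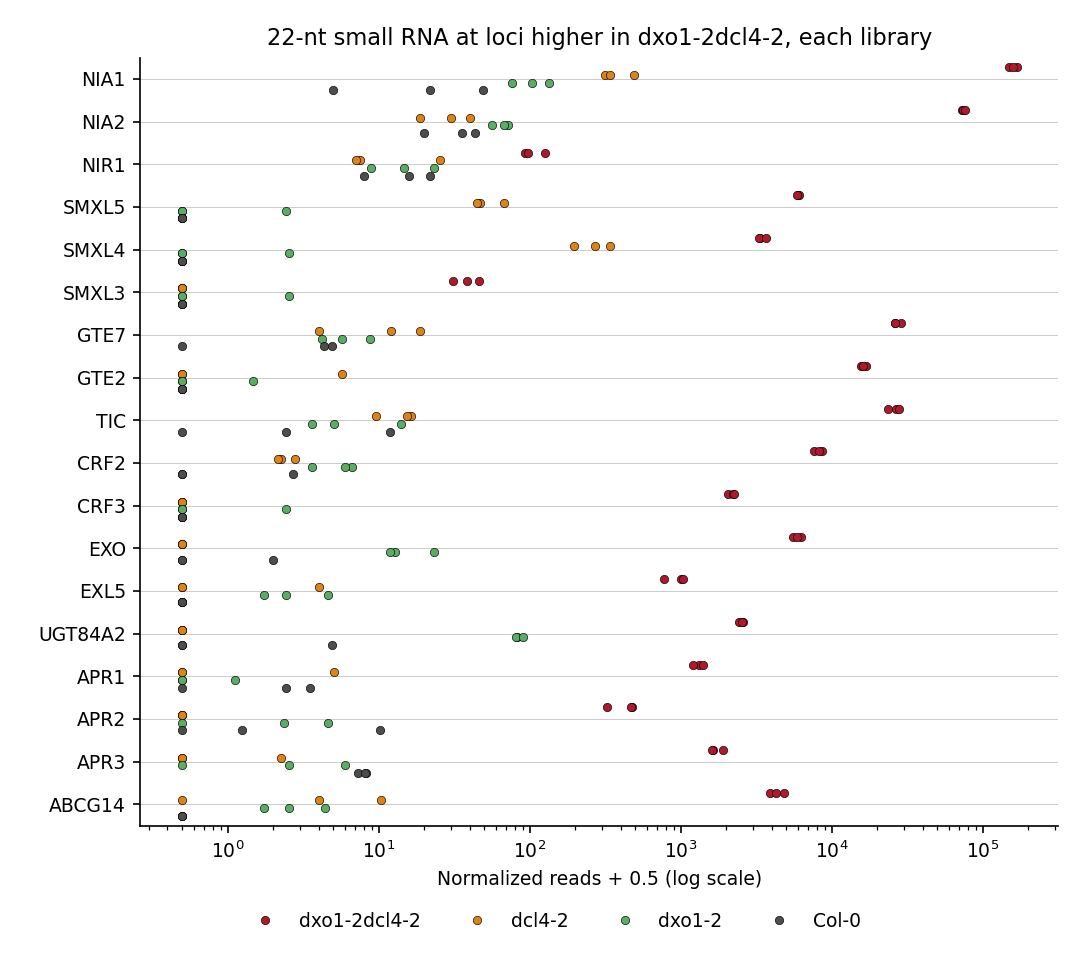
Normalized 22-nt reads + 0.5 per library on a log axis for leading loci of the double mutant in dxo1-2dcl4-2, dcl4-2, dxo1-2 and Col-0; each point is a library. The dxo1-2dcl4-2 points sit apart from all others at NIA1, NIA2, GTE7, GTE2 and TIC, while SMXL4 also has points above 100 in dcl4-2.

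The cytokinin response factors CRF2, CRF3 and CRF4, transcription factors of the AP2/ERF class, averaged 8129 ± 540, 2167 ± 110 and 10134 ± 1120 normalized 22-nt reads in dxo1-2dcl4-2, against 0.731, 0 and 3.57 in Col-0. CRF3 was at least 1990-fold higher, and the ratio for CRF4 was 2841 (6879 without Col-0 replicate 1). For CRF2, with 2 reads in Col-0, it was 11107 (95% counting interval 3074 to 91715). ABCG14, a transporter of cytokinins, averaged 4326 ± 450 in dxo1-2dcl4-2 and 0 in Col-0, at least 3972-fold higher.

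EXO, the EXORDIUM gene of brassinosteroid-responsive growth, had 5517, 6237 and 5911 normalized 22-nt reads in dxo1-2dcl4-2, against 0, 1.51 and 0 in Col-0. It averaged 15.5 in dxo1-2 (log2 difference from Col-0 4.26, adjusted p = 0.001148) and 0 in dcl4-2. The related EXL5, EXL3 and EXL2 averaged 937, 181 and 217 in dxo1-2dcl4-2, against 0, 0.251 and 11.9 in Col-0. Of the 5 EXORDIUM genes tested, 4 rose at 22-nt and 4 at 21-nt, and all 3 tested at 24-nt rose. Over all loci tested 10.4, 10.3 and 5.41% were higher in the same order. EXO, EXL5 and EXL3 reached the limit at 22-nt through dxo1-2dcl4-2 only.

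Genes of sulfate reduction were also found. The adenosine phosphosulfate reductases APR1, APR2 and APR3 averaged 1307 ± 104, 421 ± 83.8 and 1717 ± 166 normalized 22-nt reads in dxo1-2dcl4-2, against 1.65, 3.48 and 7.40 in Col-0. Their log2 differences were 9.65 (adjusted p = 2.99e-06), 7.81 (9.541e-05) and 7.76 (2.459e-06). Of the 5 sulfate assimilation genes tested, 3 rose and 2 did not pass at 22-nt and at 21-nt, and 4 of 5 rose at 24-nt. Over all loci tested 10.4% were higher at 22-nt, 10.3% at 21-nt and 5.41% at 24-nt. APR1 and APR2 reached the limit at 22-nt through dxo1-2dcl4-2 only.

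Further leading loci had other functions. CWLP, a cell wall and plasma membrane linker protein gene, averaged 11585 ± 1080 normalized 22-nt reads in dxo1-2dcl4-2 and 7.93 ± 6.93 in Col-0. MYB28, a regulator of aliphatic glucosinolate synthesis, averaged 1625 ± 71.2 in dxo1-2dcl4-2, 23.4 in dcl4-2, 0.976 in dxo1-2 and 0 in Col-0. PHB, a leaf polarity gene and target of miR165 and miR166, averaged 2244 ± 285 in dxo1-2dcl4-2 and 1.29 in Col-0, where it had 2 reads. AGO2, an Argonaute gene that is targeted by miR403, averaged 55.9 ± 23.1 in dxo1-2dcl4-2 and 0.731 in Col-0 (log2 difference 5.94, adjusted p = 0.001548).

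UGT84A2, a sinapate glucosyltransferase gene, gave small RNA in dxo1-2 as well. At 22-nt it had 2429, 2585 and 2532 normalized reads in dxo1-2dcl4-2, against 0, 0 and 4.38 in Col-0, with means of 0 in dcl4-2 and 84.2 ± 4.87 in dxo1-2. The difference between dxo1-2dcl4-2 and dxo1-2 was 4.89 (log2, adjusted p = 8.568e-05). At 21-nt it had 1329 ± 263 in dxo1-2dcl4-2, 0.724 in dcl4-2, 536 ± 48.5 in dxo1-2 and 0 in Col-0, and there dxo1-2dcl4-2 and dxo1-2 did not differ past the threshold (1.29, adjusted p = 0.1795). UGT84A3, of the same family, averaged 35.8 at 22-nt in dxo1-2dcl4-2 and 0.731 in Col-0.

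Few loci carried most of the gain. The summed 22-nt gain over the called loci was reached to 50% by 2 loci and to 90% by 18 loci. Of the 265 higher 22-nt loci, 33 exceeded 1000 normalized reads in dxo1-2dcl4-2 and 86 exceeded 100, against 5 loci above 1000 in Col-0. By kind, 210 were nuclear protein-coding genes, 49 pseudogenes, 4 microRNA genes and 2 mitochondrial genes. Here and below, pseudogene means any nuclear locus whose RefSeq biotype holds that word. Transposable element genes were not set apart as a kind, so this kind may include them. Of 2560 loci tested, 1150 were protein-coding genes, 1227 pseudogenes, 78 chloroplast genes, 59 microRNA genes and 39 mitochondrial genes.

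Within most single loci called higher at 22-nt, the 22-nt class was also the largest. NIA1 reads in the dxo1-2dcl4-2 libraries were 67.0 ± 0.821% 22-nt, 20.9 ± 1.37% 21-nt and the rest 24-nt. For NIA2 the 22-nt share was 71.8 ± 0.399%, for TIC 79.5 ± 0.491% and for CRF3 59.7 ± 3.09%. Among the 210 higher protein-coding loci, 151 had at least 20 reads in each dxo1-2dcl4-2 library. The largest class was 22-nt at 143 of these, 21-nt at 7 and 24-nt at 1, with median shares of 67.8, 22.7 and 8.47%. These loci were picked by their 22-nt call in the same libraries, which favours a 22-nt majority, so the counts are a description. The Col-0 reads of NIA2 were 39.9 ± 7.47% 22-nt and 40.0 ± 4.70% 21-nt, and neither class led there.

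The 21-nt and 24-nt RNAs of the same genes were high too. NIA1 had 57168 ± 3599 normalized 21-nt reads in dxo1-2dcl4-2 and 25.4 ± 6.07 in Col-0, a ratio of 2254, and 34622 ± 2395 normalized 24-nt reads against 8.05 ± 3.30, a ratio of 4301. NIA2 had 23732 ± 1442 against 26.3 ± 0.274 at 21-nt, and 10437 ± 639 against 16.7 ± 13.2 at 24-nt. The single-mutant means lay between at 21-nt, with NIA1 at 88.3 in dcl4-2 and 308 in dxo1-2, and NIA2 at 31.4 and 208 in the same groups. GTE7 had 11416 ± 1406 in dxo1-2dcl4-2 and 2.61 in Col-0 at 21-nt, and GTE2 had 6058 ± 452 against 0, at least 6357-fold higher. Levels are scaled separately in each table and are not compared across classes.

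The 21-nt RNAs of a list of PPR siRNA loci were nearly lost. The list held 22 loci, among them RPF2, RPF3 and RPF6 (AT1G63130), RNA processing factors that act on mitochondrial transcripts; the tables used here give most of the others by ID only. Loci of the pentatricopeptide repeat (PPR) kind are known in Arabidopsis for DCL4-dependent 21-nt secondary siRNAs. Their summed 21-nt level was 121, 115 and 81.0 normalized reads in the dxo1-2dcl4-2 libraries, against 7408, 9434 and 8124 in the Col-0 libraries, with means of 41.8 in dcl4-2 and 9337 in dxo1-2. The double mutant and dcl4-2 were both low, and dxo1-2 and Col-0 both high, with no overlap between these pairs. Of the 16 loci tested at 21-nt, 15 fell and 1 did not pass, with a median log2 difference of -4.87 against 0.28 over all loci tested. Over all 21-nt loci tested 7.57% were lower. In each class, listed loci with a dxo1-2dcl4-2 mean under 5 reached the limit through Col-0 only, so their direction was favoured by the filter. AT1G63070 and AT1G12775 (below) are among them at 21-nt.

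AT1G63080 had 17.8, 2.68 and 2.53 normalized 21-nt reads in dxo1-2dcl4-2, against 1924, 2528 and 2072 in Col-0. That is 284-fold lower (834-fold without dxo1-2dcl4-2 replicate 1), with a log2 difference of -8.59 ± 0.54 (SE, adjusted p = 5.266e-09), and the means were 0 in dcl4-2 and 2302 in dxo1-2. AT1G62914 and AT1G63400 had nearly the same values in each library, so reads shared between these sequences may have been counted at each. The summed level of the list, and its count of lower loci, would then hold such reads repeatedly. RPF3 had 18.5, 16.1 and 16.5 in dxo1-2dcl4-2, against 218, 288 and 253 in Col-0 (log2 difference -3.85, adjusted p = 0.0002855). AT1G63070 and AT1G12775 had no 21-nt read in dxo1-2dcl4-2 or in dcl4-2, and were at least 93.7-fold and 45.3-fold lower than in Col-0.

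AT1G63080 and RPF3 differed between the double mutant and dcl4-2 as well, with log2 differences of 3.49 (adjusted p = 0.0001532) and 3.25 (0.001451), both at fewer than 20 normalized reads per dxo1-2dcl4-2 library. At 22-nt the PPR list summed to 229 in dxo1-2dcl4-2, 164 in dcl4-2, 1789 in dxo1-2 and 1874 in Col-0. There 5 of 14 tested loci fell, against 6.41% of all 22-nt loci tested. That count was 3 when any 1 of the Col-0 libraries, or dxo1-2dcl4-2 replicate 3, was left out. At 24-nt 4 of 6 fell, against 9.01% of all loci tested, and 2 without Col-0 replicate 1 or 3.

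Some other loci with 21-nt RNAs in Col-0 were low in dxo1-2dcl4-2, with single-mutant values that differed from locus to locus. AT5G38850 had 0, 3.58 and 0 normalized reads in dxo1-2dcl4-2, against 362, 365 and 357 in Col-0, 303-fold lower, with all 4 reads of dxo1-2dcl4-2 in replicate 2 (log2 difference -8.49, adjusted p = 3.172e-08). Its 21-nt means were 96.6 in dcl4-2 and 55.1 in dxo1-2, and dxo1-2dcl4-2 lay below both (-6.57, adjusted p = 8.199e-07, and -5.78, adjusted p = 5.634e-06). In Col-0 its reads were 54.4 ± 7.77% 22-nt and 45.1 ± 7.64% 21-nt, and at 22-nt it was 27.8-fold lower in dxo1-2dcl4-2. AT5G43740, from a list of microRNA-triggered disease resistance loci, had 0, 10.7 and 0 normalized 21-nt reads in dxo1-2dcl4-2, against 253, 279 and 247 in Col-0, with 28.8 in dcl4-2 and 176 in dxo1-2. Of the 4 loci of that list tested at 21-nt, 3 fell, against 7.57% of all loci tested. AT5G38850 and AT5G43740 reached the limit at 21-nt through Col-0 only, so their direction was favoured by the filter. Of 6 auxin receptor genes and 10 other targets of trans-acting siRNAs, 2 each were tested at 21-nt, with median log2 differences of -3.23 and -1.56. None of these passed by limma, edgeR or DESeq2 at 21-nt; 2 auxin receptor genes and 1 of the other targets had an unadjusted limma p under 0.05. At 22-nt 1 of 2 auxin receptor genes fell, against 6.41% of all loci tested.

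AT5G63020, of the same list, and the aspartate kinase gene AK3 had no 21-nt read in dxo1-2dcl4-2 or dcl4-2, against means of 37.5 and 40.6 in Col-0. Both reached the limit through Col-0 only. AGO1, the Argonaute that carries most microRNAs, averaged 4.03 ± 6.97 in dxo1-2dcl4-2, 1.49 in dcl4-2, 89.2 in dxo1-2 and 28.0 ± 10.95 in Col-0. Its fall (log2 difference -4.20, adjusted p = 0.01267) lost the call without Col-0 replicate 1 (adjusted p = 0.0595), without Col-0 replicate 3 (0.0543) and without dxo1-2dcl4-2 replicate 2 (0.0533). AGO2 at 21-nt averaged 52.8 in dxo1-2dcl4-2 and 11.9 in Col-0, and its call was lost in 11 of the 16 alternatives run.

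**Figure D4:**
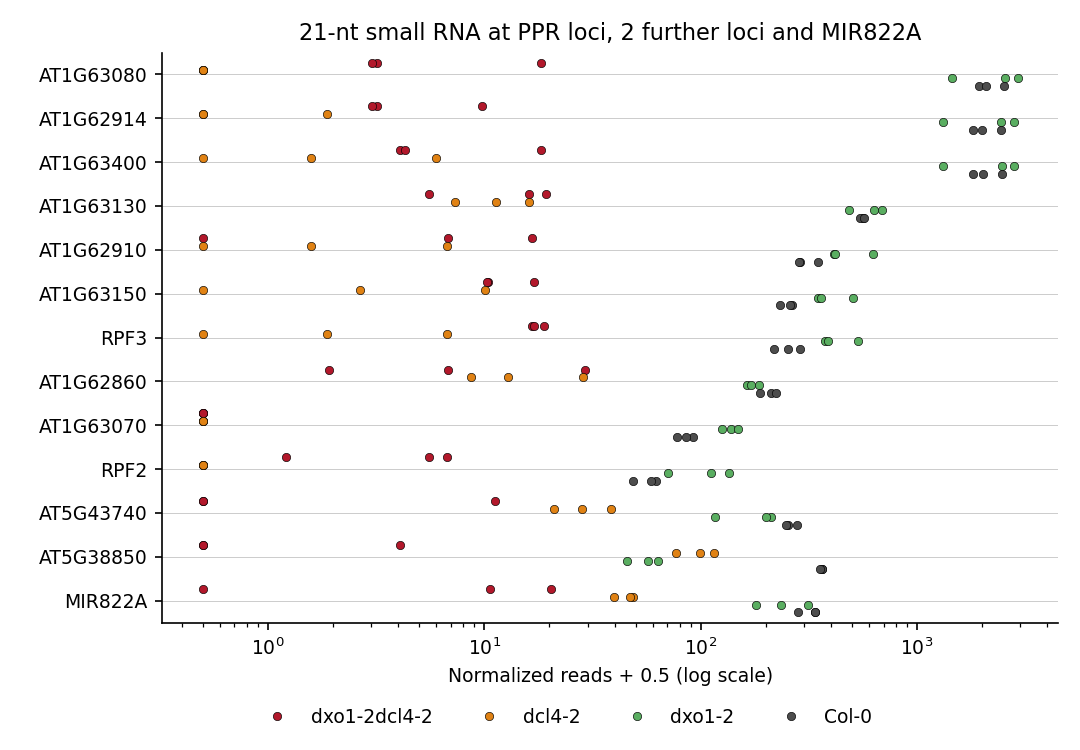
Normalized 21-nt reads + 0.5 per library on a log axis for PPR list loci, AT5G43740, AT5G38850 and MIR822A in dxo1-2dcl4-2, dcl4-2, dxo1-2 and Col-0; each point is a library. The PPR loci are low in dxo1-2dcl4-2 and dcl4-2, while AT5G38850 has intermediate values in both single mutants (means of 96.6 and 55.1 against 361 in Col-0).

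MicroRNA loci were more often lower than higher. Of 103 tested at 21-nt, 8 rose, 27 fell and 68 did not pass, with a median log2 difference of -0.35 against 0.28 over all loci. Over all 21-nt loci tested 10.3% were higher and 7.57% lower. The 8 higher calls were 3 with libraries centred on the median, 2 when scaled to all recovered reads, 1 by edgeR and 5 without Col-0 replicate 2. The 27 lower calls were 41, 79, 29 and 22 in the same settings. At 22-nt, 4 of 59 rose and 18 fell (10.4% and 6.41% over all loci), and without dxo1-2dcl4-2 replicate 3 only 2 were called higher. At 24-nt, 1 of 18 rose and 3 fell (5.41% and 9.01% over all loci), and none of the 3 was called when any 1 of the Col-0 libraries was left out.

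MIR398c, which targets copper superoxide dismutase transcripts, was among the lower 21-nt microRNAs. It had 874, 832 and 752 normalized 21-nt reads in dxo1-2dcl4-2, against 11837, 13492 and 12235 in Col-0. The double mutant was 15.3-fold lower (log2 difference -3.93 ± 0.12, SE, adjusted p = 1.981e-13). The dcl4-2 libraries averaged 12134 and the dxo1-2 libraries 3754, and dxo1-2dcl4-2 was below both (-3.88, adjusted p = 2.414e-13, and -2.20, adjusted p = 1.772e-09).

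MIR161, which targets PPR transcripts, had 6091, 8346 and 6825 normalized 21-nt reads in dxo1-2dcl4-2, against 18075, 26711 and 21934 in Col-0, 3.14-fold lower. MIR173, the trigger of several trans-acting siRNAs, averaged 1055 ± 117 in dxo1-2dcl4-2, 3988 in dcl4-2, 1921 in dxo1-2 and 2994 ± 353 in Col-0. MIR159a averaged 1988 ± 235 in dxo1-2dcl4-2 and 5551 ± 690 in Col-0. MIR167a, of the auxin response factor regulators, averaged 163 ± 32.7 in dxo1-2dcl4-2, 698 in dcl4-2, 352 in dxo1-2 and 772 ± 86.7 in Col-0. At each of these microRNAs the double mutant was also below both single mutants past the threshold.

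MIR158a did not follow that order. It averaged 969 ± 124 in dxo1-2dcl4-2, 1954 in dcl4-2, 992 in dxo1-2 and 1967 ± 212 in Col-0, and the double mutant did not differ from dxo1-2 past the threshold (log2 difference 0.00, adjusted p = 0.9936). MIR822A, a microRNA known to be made by DCL4, had 19.9, 0 and 10.1 in dxo1-2dcl4-2, against 337, 281 and 336 in Col-0, 31.8-fold lower (62.8-fold without dxo1-2dcl4-2 replicate 1), with 44.6 in dcl4-2 and 243 in dxo1-2. It was lower than in dcl4-2 (-3.24, adjusted p = 0.01476).

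In the miR169 family, which targets NF-YA transcripts, MIR169d had no 22-nt read in dxo1-2dcl4-2 against 98.9, 87.4 and 91.0 normalized reads in Col-0, at least 120-fold lower. Its means were 86.3 in dcl4-2 and 55.0 in dxo1-2. MIR169e had no 21-nt read in dxo1-2dcl4-2 and averaged 60.3 in dcl4-2, 30.7 in dxo1-2 and 72.8 in Col-0. At 22-nt MIR319c, of the TCP-targeting family, had 1411, 1950 and 1663 in dxo1-2dcl4-2, against 8604, 8444 and 7637 in Col-0, 4.91-fold lower. MIR167d averaged 28.3 ± 17.8 at 22-nt in dxo1-2dcl4-2, 416 in dcl4-2, 47.8 in dxo1-2 and 442 ± 14.8 in Col-0.

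MIR845a rose furthest of the abundant 21-nt microRNAs. It had 9691, 15434 and 12298 normalized reads in dxo1-2dcl4-2, against 667, 1000.1 and 700.7 in Col-0, a ratio of 15.8 (log2 difference 3.98 ± 0.31, SE, adjusted p = 5.007e-08). The means were 1891 in dcl4-2 and 12146 in dxo1-2, and dxo1-2dcl4-2 did not differ from dxo1-2 past the threshold (0.10, adjusted p = 0.9045). MIR845b at 22-nt averaged 427 ± 59.6 in dxo1-2dcl4-2, 10.6 in dcl4-2, 309 in dxo1-2 and 3.06 in Col-0. Both are members of the miR845 family, known from pollen, where it targets retrotransposons.

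Smaller rises depended on the scaling. MIR157a averaged 2603 ± 243 normalized 21-nt reads in dxo1-2dcl4-2 and 1005 ± 44.6 in Col-0 (log2 difference 1.37, adjusted p = 0.000156), and was -0.34 when scaled to all recovered reads. Against the median of all loci tested it stood at 1.09 in the reported fit and 0.80 in that scaling. MIR157b has the same 12 values, and the loci cannot be told apart; near-identical members of the other families may share reads too. MIR403, MIR319a and MIR396a had log2 differences of 0.98, 0.76 and 0.72, and -0.72, -0.95 and -0.98 when scaled to all recovered reads. At 24-nt MIR396a averaged 454 ± 114 in dxo1-2dcl4-2 and 35.2 ± 3.0 in Col-0, 12.9-fold higher (adjusted p = 4.567e-07), and it stayed above 0 in that scaling (1.95).

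**Figure D5:**
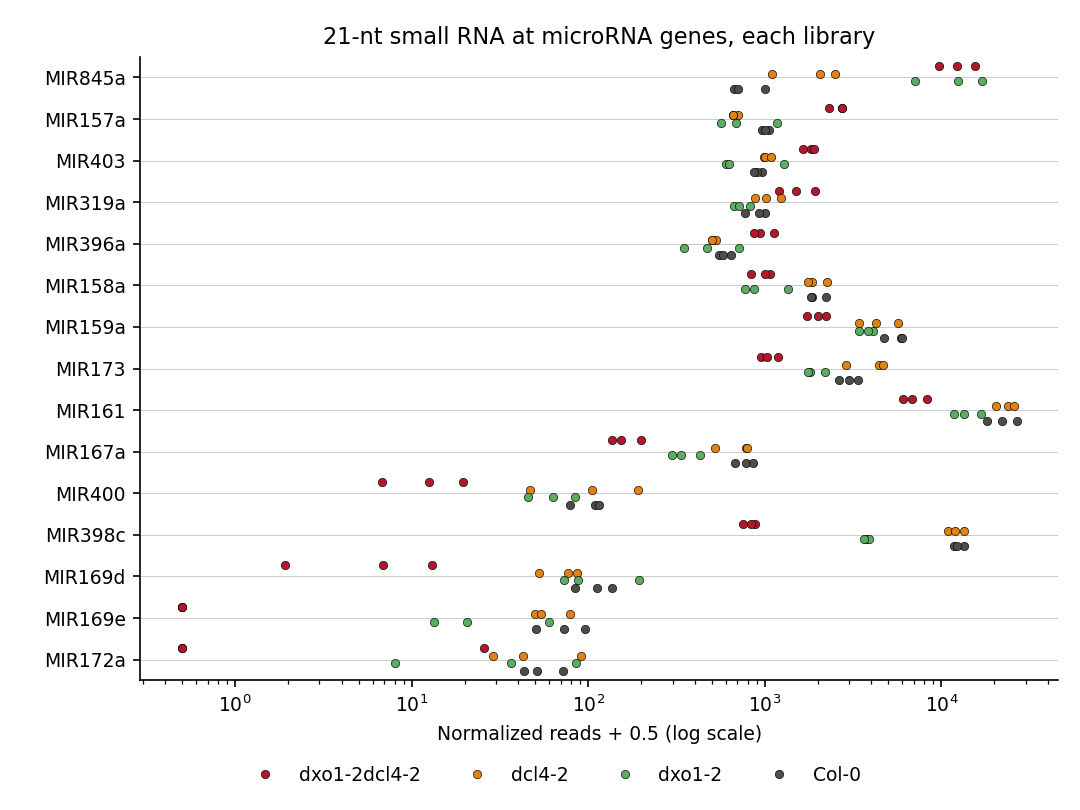
Normalized 21-nt reads + 0.5 per library on a log axis for microRNA loci in dxo1-2dcl4-2, dcl4-2, dxo1-2 and Col-0; each point is a library. MIR398c lies at 752 to 874 in dxo1-2dcl4-2 against 11837 to 13492 in Col-0, and MIR845a is high in dxo1-2dcl4-2 and dxo1-2.

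Loci of photosynthesis were lower where they differed, and most chloroplast genes that differed were lower too. How far such reads are fragments of abundant RNA was not tested. The 20 listed nuclear photosynthesis genes summed to 546 to 560 normalized 21-nt reads in the dxo1-2dcl4-2 libraries, against 1425 to 1544 in the Col-0 libraries. At 22-nt the sums were 422 to 604 against 1379 to 1594. The dcl4-2 and dxo1-2 means were 1332 and 1129 at 21-nt, and 1329 and 943 at 22-nt. At 24-nt the means were 468 ± 86.2 in dxo1-2dcl4-2, 1274 in dcl4-2, 548 in dxo1-2 and 981 ± 187 in Col-0. Of the 20, 10 fell at 21-nt and 13 at 22-nt, and 9 of 19 fell at 24-nt, against 7.57%, 6.41% and 9.01% of all loci in the same order. None was called higher in any alternative run. The lower count at 21-nt was 6 without Col-0 replicate 3 or without a filter, 5 with 6 libraries only, 15 when centred and 19 when scaled to all recovered reads. At 22-nt that last scaling gave 20. At 24-nt the count was 5 without Col-0 replicate 1, 2 with 6 libraries only and 19 when scaled to all recovered reads. RCA, the Rubisco activase gene, averaged 35.9 ± 16.4 at 21-nt in dxo1-2dcl4-2 and 253 ± 53.6 in Col-0.

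Among chloroplast genes, 24 of 82 fell and 2 rose at 21-nt, 27 of 78 fell at 22-nt, and 4 of 72 fell and 2 rose at 24-nt. Over all loci 7.57% were lower and 10.3% higher at 21-nt, 6.41% lower at 22-nt, and 9.01% lower and 5.41% higher at 24-nt. The summed 21-nt level of the 88 chloroplast genes was 30792 ± 2849 normalized reads in dxo1-2dcl4-2 and 16703 ± 906 in Col-0. Without the 2 copies of RPL23 it was 9282 ± 343 in dxo1-2dcl4-2, 13566 in dcl4-2, 11848 in dxo1-2 and 14361 ± 459 in Col-0. At 22-nt all 88 summed to 9796 ± 369 in dxo1-2dcl4-2, 15175 in dcl4-2, 9685 in dxo1-2 and 15199 ± 1203 in Col-0, so dxo1-2 was as low as the double mutant there. The lower counts were 43 at 21-nt and 43 at 22-nt with libraries centred on the median, and 65 at 21-nt and 65 at 22-nt when scaled to all recovered reads. At 24-nt that last scaling gave 53 lower and 0 higher by limma. RBCL, the large Rubisco subunit gene, averaged 782 ± 82.1 at 21-nt in dxo1-2dcl4-2 and 2105 ± 208 in Col-0 (log2 difference -1.43, adjusted p = 1.349e-06). The 2 that rose at 21-nt are identical copies of RPL23, a ribosomal protein gene, and cannot be told apart. RPL23 had 11839, 11140 and 9286 normalized 21-nt reads in dxo1-2dcl4-2, against 1435, 1012 and 1066 in Col-0, a ratio of 9.19 (adjusted p = 3.172e-08). In dxo1-2dcl4-2, 90.6 ± 1.2% of its reads were 21-nt, against 68.1 ± 3.93% in Col-0. It stayed higher when scaled to all recovered reads (log2 difference 1.504, adjusted p = 0.000565). At 24-nt PSBA, the gene of the D1 protein, averaged 3033 ± 446 in dxo1-2dcl4-2 and 1691 ± 353 in Col-0 (0.85, adjusted p = 0.004772), and was -0.84 when scaled to all recovered reads.

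In the 24-nt class the lower loci held more pseudogenes than protein-coding genes, but by a smaller margin than all loci tested, and the higher loci held fewer. Of the 336 lower loci, 179 were pseudogenes and 147 nuclear protein-coding genes, and of the 202 higher loci 115 were protein-coding genes and 83 pseudogenes. Pseudogenes made up 2408 of the 3731 loci tested (64.5%) and nuclear protein-coding genes 1165 (31.2%). So 179 of 2408 pseudogenes were lower, a smaller part than the 147 of 1165 protein-coding genes. The summed 24-nt level of the pseudogenes was 53812 normalized reads in dxo1-2dcl4-2, 54579 in dcl4-2, 53735 in dxo1-2 and 53975 in Col-0. Normalized reads are scaled on loci with reads in every library, and most loci tested were pseudogenes. These sums therefore cannot show a change common to the pseudogenes. Their share of the 24-nt reads was 33.0 ± 0.727% in dxo1-2dcl4-2 and 55.5 ± 1.53% in Col-0 (SD, n = 3 each). The 336 lower loci were 180 without Col-0 replicate 1, 172 without Col-0 replicate 2 and 182 without Col-0 replicate 3, and the pseudogenes among them 94, 87 and 95. The 202 higher loci were 120 without Col-0 replicate 1 and 127 without Col-0 replicate 3.

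Some 24-nt loci were at 0 in the double mutant. SUVH9, a protein of RNA-directed DNA methylation, had no 24-nt read at its locus in dxo1-2dcl4-2 against 37.2, 31.8 and 17.2 normalized reads in Col-0, at least 31.1-fold lower, with 2.59 in dcl4-2 and 3.14 in dxo1-2. AT4G03530 had none in dxo1-2dcl4-2 against 18.6, 25.7 and 34.4 in Col-0, with 36.6 in dcl4-2 and 20.7 in dxo1-2. The double mutant was below all other groups there (adjusted p = 1.356e-05 against Col-0, 5.445e-06 against dcl4-2 and 3.597e-05 against dxo1-2). AT5G37175 had none in dxo1-2dcl4-2 against a mean of 29.6 in Col-0, with 6.32 in dcl4-2 and 2.60 in dxo1-2. Of the 3 loci listed for RNA-directed DNA methylation, which do not include SUVH9, and the 10 for salicylic acid immunity, none reached the limit in any class.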

How the data were processed

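Small RNA libraries were grouped by title. The deposited small RNA signal is normalized reads per locus for each length, per the labels, with Bowtie and TAIR10 named in the submitters' processing notes; how multi-mapping reads and strand were treated is not given there. Of the authors' values above 0, 100% came out as whole reads (tolerance 0.001) when multiplied by size factors. The deposited mRNA values are FPKM, with TopHat2 2.1.0 and RSEM 2.1.30 named in the same notes; they come from 16-day plants, without the double mutant, and are described only.

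One limma model (3.58.1; R 4.3.3) with 4 group means over 12 libraries was fitted per class to log2(normalized reads + 0.5), with a mean-variance trend and two-sided adjusted p under 0.05. Recovered reads were also tested with edgeR 4.0.16 and DESeq2 1.42.0. Counting intervals are 95% and cover counting error only. Log2 differences are on the log2(value + 0.5) scale: the added 0.5 pulls those of low loci toward 0, and as differences of mean logs they can also exceed the log of a ratio of means.

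Named loci are, per class, the 10 highest and 10 lowest called loci without overlap, the 5 most abundant, and members of the lists; a further set was chosen after its values were seen. Members and lists were chosen with earlier results of these data known. RefSeq TAIR10.1 locus tags matched 31722 loci, and the tables gave no sequences to print.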

Additional observations from a re-analysis of the deposited data

Results flagged for a closer look

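The 5 most abundant 22-nt loci of dxo1-2dcl4-2 had a larger log2 step from dcl4-2 to dxo1-2dcl4-2 than from Col-0 to dxo1-2. The step in the dcl4-2 background minus that in the wild-type background was 13.28 for GTE2, 10.3 for NIA2, 10.01 for GTE7, 9.529 for TIC and 6.173 for NIA1. All 5 passed the interaction test of the limma fit, but they were chosen for their level in dxo1-2dcl4-2, which enters the difference, so the values are a description. GTE2, GTE7 and TIC also had Col-0 means under 5. For NIA1 all single-mutant libraries lay above all Col-0 libraries, at 314 to 489 normalized reads in dcl4-2 and 75.8 to 134 in dxo1-2 against 4.52 to 48.2 in Col-0.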

How the results depend on the processing

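Loci called higher and lower in dxo1-2dcl4-2 than in Col-0 moved with the scaling, the tool, the libraries fitted and the filter. Scaled to all recovered reads there were 119 higher and 453 lower at 21-nt, 492 lower at 22-nt, and 80 higher and 1568 lower at 24-nt; the gained reads are part of that scale. Centring on the median gave 226 lower at 21-nt and 251 lower at 22-nt. edgeR put 123 loci higher and 141 lower at 21-nt, and 87 higher at 24-nt. Fitting 6 libraries only gave 98 lower at 22-nt, and 100 higher and 106 lower at 24-nt. Without a filter 119 were higher at 24-nt. For the last 3 settings the cause was not tested. More loci were higher than lower at 21-nt in the reported fit, and fewer by edgeR, in both scalings and without dxo1-2dcl4-2 replicate 2 (182 and 187). Leaving out each library gave 155 to 189 higher and 100 to 187 lower at 21-nt, 234 to 262 and 106 to 212 at 22-nt (106 without Col-0 replicate 2), and 120 to 198 and 172 to 414 at 24-nt. Over protein-coding loci alone the 22-nt share differed by 39.12 percentage points, against 34.46 over all.

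With the replicate block there were 177 higher and 135 lower at 21-nt, 258 and 156 at 22-nt, and 175 and 323 at 24-nt. Same-numbered libraries did not deviate together (correlations -0.0396 to 0.0244), so the numbers were not read as pairs.

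Of 3824 alternative values of 239 named loci, 3551 kept direction and call, 260 lost the call and 13 turned direction; 180 loci kept both in all alternatives run. The 13 were, scaled to all recovered reads, MIR157a and MIR157b (-0.336 each), MIR396a (-0.981), MIR403 (-0.725), MIR319a (-0.947) and MIR869 (-0.024) at 21-nt, and PSBA (-0.839) and MATK (-1.675) at 24-nt; MATK also turned when centred (-0.075), by edgeR (-0.427) and DESeq2 (-0.032), and without dxo1-2dcl4-2 replicate 1 (-0.029) or Col-0 replicate 2, from 0.018 in the reported fit, where it was not called (leaving out each library gave -0.226 to 0.179). SMAX1 at 22-nt lost its call in 4 alternatives. The Col-0 22-nt class, with 42217 to 105741 reads per library, limits ratios at loci with few Col-0 reads.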

Other observations

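Messenger RNA of the double mutant was not analysed here, but the loci with more 22-nt RNA can be described by the mRNA of 16-day Col-0 plants. The 210 higher protein-coding loci had a median of 15.8 FPKM in Col-0, against 41.9 for the 1150 protein-coding loci tested and 4.77 for the 26712 in the table. Lead loci spanned a wide range of levels. NIA2 averaged 420 FPKM in Col-0, CWLP 272, NIA1 48.7, TIC 42.0, GTE2 32.6, GTE7 27.9, CRF4 4.44, ABCG14 1.52 and SMXL4 1.56. The median length was 1786 bases for the 210 loci, against 1600 for those tested and 1345 for the table. Age and libraries differ between both kinds of data, and no test was made.

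Pseudogene 22-nt reads were highest in dcl4-2. They summed to 21568 normalized reads in dxo1-2dcl4-2, 43424 in dcl4-2, 22306 in dxo1-2 and 18901 in Col-0.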
